A study of Saccharomyces cerevisiae with 255 samples.

Results

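The 10 genes described here encode aminoacyl-tRNA synthetases of the yeast mitochondrion, and further ones are listed apart below. They were taken by name, as MSF1 (YPR047W), MSW1 (YDR268W), MSY1 (YPL097W), MSM1 (YGR171C), MSE1 (YOL033W), MSD1 (YPL104W), ISM1 (YPL040C), NAM2 (YLR382C), MSK1 (YNL073W) and MSR1 (YHR091C), from the 6629 genes counted in each library. The data are RNA tagging of Saccharomyces cerevisiae BY4741, with 255 libraries from 90 strains. In RNA tagging, an RNA-binding protein (RBP) is fused at its own locus to the Caenorhabditis elegans poly(U) polymerase Pup2, so that an mRNA bound in the cell receives Us after its poly(A) tail. The libraries comprised 109 from 34 strains with an intact RBP, 127 from 50 strains with a deletion in an RBP, 11 from 3 strains in which the fused Pup2 is dead (dPup2), and 8 from 3 C-Swat strains, which have an acceptor module in place of Pup2 and no tagging enzyme. Cells were in exponential growth with glucose. The labels name SD for the overnight culture and SC after dilution, while the methods of the study name SD only. The strains of Puf3 are PUF3::Puf3-Pup2, PUF3::Puf3-deadPup2, PUF3::Puf3_C-SWAT and deletion alleles of Puf3-Pup2. The 33 other RBPs, among them Pub1, Sro9, Pbp1, Puf4 and Puf5, and their 39 deletion strains carry Pup2 at the RBP in the same way, and Puf4 and Puf5 also have dPup2 and C-Swat strains. All are BY4741 without other treatment.

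The main comparisons use 12 libraries of Puf3-Pup2 (titles C1 and C2), 7 of Puf3-dPup2, 4 of the Puf3 C-Swat strain and 34 of 11 Puf3 deletion strains, all of the latter carrying Pup2. ΔRBD lacks the RNA-binding domain. T1 to T7 are a series of gradual truncations of the sequence outside this domain, Δnon-RBD lacks the non-RBD sequence and ΔIDR lacks a disordered region. The labels give T7 to 2 constructs with different titles, del465 with 4 libraries and del513 with 3, which were kept apart. Library depth ranged from 93564 to 5768639 reads with a median of 1045000, and from 495081 to 2241490 in the 12 Puf3 libraries. A member averaged 15.8 to 26.7 RPM in Puf3, where RPM is reads with the library scaled to 1000000. In a single Puf3 library it had from 7 to 75 reads, and this low number limits each value below. One Puf3 library, C1_8, had 1.71% of all its reads tagged, where the 12 libraries had a median of 0.48% and a lowest value of 0.344%. It also had the highest share of tagged member reads, 18%, with a median of 7.88% and a lowest value of 4.18%. Without it, the number of members called against Puf3-dPup2 was 5, as with it. As described below, the filter fixed the direction of these calls, and with C1_8 included 78.1% of all genes tested were called. The unchanged number is thus no check of this library. Nothing in the labels says that libraries of a strain came from separate cultures, so p-values measure only the spread between these libraries.

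An aminoacyl-tRNA synthetase joins an amino acid to its tRNA. Yeast mitochondria translate a few hydrophobic subunits of the respiratory chain from their own genome, and most of the synthetases they need are encoded in the nucleus by genes separate from those of the cytosolic enzymes. Their mRNAs are therefore translated in the cytosol and the proteins are imported. Puf3 is a PUF-family protein known for binding 3′UTRs of nuclear mRNAs for mitochondrial proteins, through a core UGUA element, often with a C at the second base before it.

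All 10 members had this element, written TGTANATA with N for any base, on the coding strand within 300 bases after the stop codon. Only the coding strand was searched, and 13 sites were found. In the R64 annotation, 972 of 5944 protein-coding genes (16.4%) had such a site in the window of the same length. The sites are shown because they are what the 10 members share, and the base before the element is taken up below. They are printed 5′ to 3′ as DNA, read from the R64 reference genome. The 28 bases hold the element and 10 on each side, and capitals mark the element and the base 2 before it. The first 7 have C there.
MSD1: aggtttttCtTGTAAATAttatacctat
MSF1 second site: gtatatatCtTGTAAATActttgtcagg
MSE1: aatagggtCaTGTAAATAcgtcatatac
NAM2 first site: cactagtgCtTGTAAATAgttaaatatt
MSR1: tttataaaCaTGTAAATAgaagaaagtt
ISM1: gtacctttCcTGTATATAaagaatgcca
MSY1: tgcactgaCtTGTAAATAagattataaa
MSF1 first site: ttaccgcaGcTGTATATAtcttgtaaat
NAM2 second site: tatatataTaTGTATATAaatgtggatg
MSM1: cttactgcAcTGTAAATAttaacttaag
MSK1 first site: ccaatgctTtTGTAAATAaatcagacat
MSK1 second site: agacatatAcTGTAAATAattagaatgg
MSW1: gcaaacgcAaTGTAAATAataatacagt

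The 28-base sites lie downstream of the following genes, at these R64 coordinates. On chromosome XVI they are chrXVI:357731-357758 (MSD1, plus strand), chrXVI:658969-658996 and chrXVI:658980-659007 (MSF1, plus), chrXVI:366498-366525 (MSY1, plus) and chrXVI:475958-475985 (ISM1, minus). The others are chrXV:265114-265141 (MSE1, plus), chrXII:882017-882044 and chrXII:881931-881958 (NAM2, minus), chrVIII:284759-284786 (MSR1, minus), chrVII:840788-840815 (MSM1, minus), chrXIV:490132-490159 and chrXIV:490154-490181 (MSK1, plus) and chrIV:1005166-1005193 (MSW1, plus). The element began 18 bases (ISM1) to 119 bases (second site of NAM2) after the stop codon. The windows of both MSF1 elements overlap, as do those of MSK1. All elements read TGTAAATA except 3, those of ISM1, the first of MSF1 and the second of NAM2, which read TGTATATA.

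In Puf3, 5 members carried Us on 13.1% to 18.8% of their reads, and 3 on 1.09% or less. The tagged share is the percentage of a gene's reads with 4 to 13 Us. Over the 12 Puf3 libraries, 295 of 3099 reads of the 10 members were tagged (9.52%). No read was tagged in the 1877 member reads of Puf3-dPup2, which allows a share of up to 0.16%, nor in the 866 reads of the C-Swat strain, which allows up to 0.346%. Limits and intervals cover counting error only.

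MSD1, the aspartyl-tRNA synthetase, had the highest pooled share, 58 of 309 reads or 18.8% (95% Wilson interval 14.8 to 23.5%). Over the 12 libraries its share was 0% at the lowest, 17.1% at the median and 44.4% at the highest. MSF1, the phenylalanyl enzyme, reached 17.4% (13.7 to 21.7%), with 0%, 13.2% and 32.1% as lowest, median and highest. Both had a tagged read in 11 of the 12 libraries. MSE1, the glutamyl enzyme, which also charges the glutaminyl tRNA with glutamate, reached 16.5% (13.2 to 20.6%). It was the only member tagged in 12 of 12 libraries, from 3.33% through a median of 14.1% to 36.4%. NAM2, the leucyl enzyme, which also takes part in splicing of mitochondrial group I introns, had 39 of 287 reads tagged (13.6%, 10.1 to 18%). Its library shares were 0% at the lowest, 13.1% at the median and 21.9% at the highest, with a tagged read in 9 libraries. MSR1, the arginyl enzyme, had 13.1% (9.85 to 17.1%), with 0%, 10.2% and 25.5% as lowest, median and highest.

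ISM1, the isoleucyl enzyme, and MSM1, the methionyl enzyme, were in between. ISM1 had 15 tagged of 230 reads (6.52%, 3.99 to 10.5%) and a library share of 0 to 20%, with a tagged read in 5 libraries. MSM1 had 9 of 225 reads (4.00%, 2.12 to 7.43%) in 6 libraries, again from 0 to 20%. The lysyl enzyme MSK1, which is also needed for import of a cytosolic lysine tRNA, had 4 of 366 reads (1.09%, 0.426 to 2.78%), or 2 of 320 (0.625%) without library C1_8. The tyrosyl enzyme MSY1 had 2 of 224 reads (0.893%, 0.245 to 3.20%), and the tryptophanyl enzyme MSW1 2 of 402 (0.498%, 0.137 to 1.80%). Each of these latter 2 had its tagged reads in 2 libraries, and without 1 of them the share was 0.476% for MSY1 (without C2_7) and 0.281% for MSW1 (without C2_8). For the other 7 members, no left-out library moved the share by over 1.5 times. The median library share of these 3 was 0%, and that of ISM1 also.

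**Figure D1:**
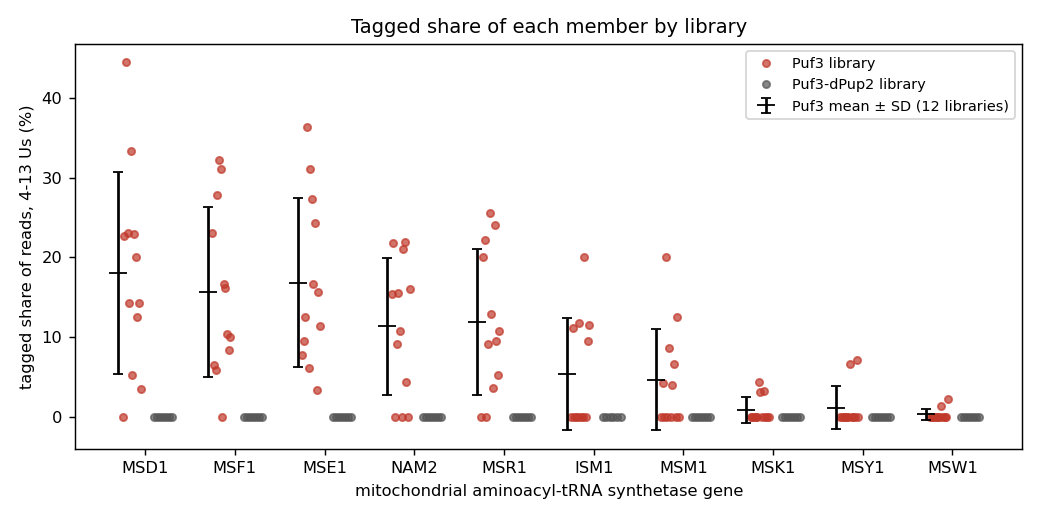
Tagged share of reads (%, vertical axis) of each member (horizontal axis, ordered by pooled share) in the 12 Puf3 libraries (red) and the Puf3-dPup2 libraries (grey, 7 for each member, 6 for ISM1, which had no read in the other), with the Puf3 mean ± SD in black. The means run from 18% for MSD1 to 0.292% for MSW1, and every Puf3-dPup2 library lies at 0.

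The 45 pairs of members were compared within the same library by a two-sided exact permutation test (sign flips over 12 libraries, Benjamini-Hochberg adjusted over the pairs), and 22 pairs differed at an adjusted p under 0.05. MSD1, MSF1, MSE1, NAM2 and MSR1 were each above MSK1, MSY1 and MSW1, in 15 of 15 pairs, with adjusted permutation p from 0.00488 to 0.022. Among these 5, the 10 pairs did not differ beyond the spread between libraries (adjusted permutation p 0.117 or higher). The largest difference between them was 6.70 percentage points, for MSD1 over NAM2. The 3 pairs within MSK1, MSY1 and MSW1 did not differ either (adjusted permutation p 0.456 or higher). ISM1 was below MSE1, MSD1, MSR1 and MSF1, and MSM1 below MSE1, MSD1 and MSF1. ISM1 and MSM1 were not separated from each other (adjusted permutation p 0.85).

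The shares in Puf3 and Puf3-dPup2 were compared for each member. A count of 0 in Puf3-dPup2 allows 3 reads. Over the share these would give, the pooled Puf3 share was 10.8-fold for MSF1, 10.3-fold for MSE1 and 9.89-fold for MSD1. It was 8.97-fold for MSR1 and 7.79-fold for NAM2. These ratios leave out the error of the Puf3 share and the spread between libraries, so they are not lower bounds. The two-sided exact permutation test of library shares (12 against 7) gave p = 0.000853 for MSE1, 0.00163 for MSD1, 0.00206 for MSF1, 0.00361 for MSR1 and 0.00564 for NAM2, unadjusted. For the other 5, whose libraries mostly overlap at 0, it gave exact p = 0.0704 (MSM1), 0.16 (ISM1), 0.263 (MSK1), 0.509 (MSY1) and 0.509 (MSW1). No filter on tagged reads was used in this test. edgeR's quasi-likelihood test over all genes was run on those that had 10 or more tagged reads in all and averaged 16 RPM or more. Of the 457 genes tested, 78.1% were called higher. MSD1, MSF1, MSE1, NAM2 and MSR1 passed this filter and were called higher, but with no tagged read in Puf3-dPup2 they could pass only through Puf3. Their direction was thus fixed by the filter, and the calls are no result about the members.

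The Us on the members' tagged reads had nearly the mean length seen over all genes. The 295 tagged reads had 8.32 Us on average, and all 93110 tagged reads of the 12 libraries had 8.35. Of the members' reads, 119 had 4 to 6 Us, 61 had 7 to 9 and 115 had 10 to 13. Among the 5 members with 39 or more tagged reads, the mean was lowest for NAM2, at 7.31 Us, and highest for MSD1, at 9.05. Reads with 16 Us made up 6.10% of the members' reads in Puf3 and 5.97% in Puf3-dPup2, which has no active enzyme.

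**Figure D2:**
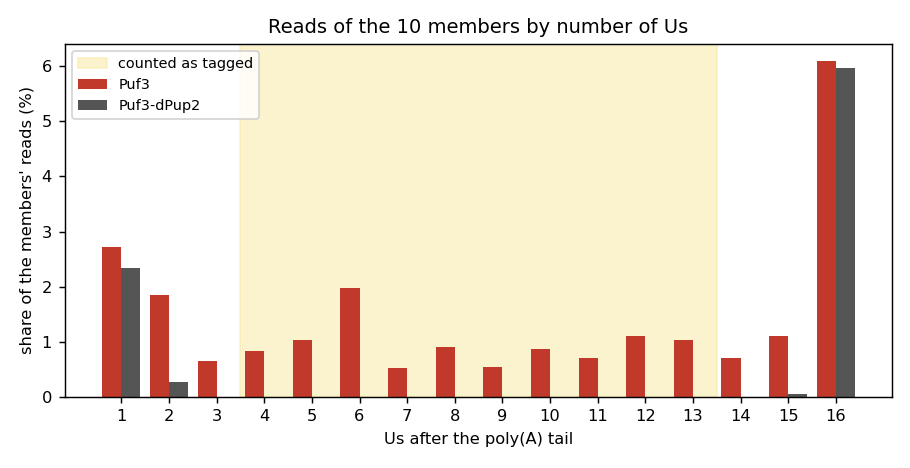
Share of the summed reads of the 10 members (%, vertical axis) by number of Us from 1 to 16 (horizontal axis) in the 12 Puf3 libraries (red bars) and the 7 Puf3-dPup2 libraries (grey bars), with the lengths counted as tagged shaded. Between 4 and 13 Us only Puf3 has reads, 295 in all, while the bars at 16 Us are of similar height.

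The modification level weights tagged reads by their Us (the sum of U number times RPM over 4 to 13 Us, divided by all RPM of the gene), and a target has a level above 0.15 at 16 RPM or more. The 6 members that met this in Puf3 were MSD1 (1.67), MSE1 (1.43), MSF1 (1.34), MSR1 (1.01), NAM2 (0.874) and ISM1 (0.479). Over all genes with at least 16 RPM in Puf3, 231 of 4422 were targets. MSM1 had a level of 0.329 but only 15.8 RPM. The RPM minimum was added here, as the target rule of the study names none. Without it, 7 members were above 0.15. MSK1 (0.0862), MSY1 (0.0562) and MSW1 (0.0274) were below the level, with 16.7 to 26.4 RPM.

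The members without a C at the second base before any element were MSM1, MSK1 and MSW1. These included 2 of the 3 members with almost no tagging. MSY1 has the C and was an exception. MSM1 has no C, yet its modification level of 0.329 was above 0.15, at 15.8 RPM. Across all genes with at least 16 RPM in Puf3, 155 of 245 with an element preceded by C were targets (63.3%), against 52 of 578 with an element and no C (9%) and 24 of 3599 with no element (0.667%). Without the members these shares were 62.6%, 9.03% and 0.667%. This split was noticed after the shares had been seen and is a description of these libraries, with no test. A match is not a shown binding site.

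The other genes of the pathway were read from lists of related enzymes. Of 7 other genes for mitochondrial tRNA charging, 5 had the element, in each case with the C. The highest shares were those of SLM5, the asparaginyl enzyme, with 23 of 210 reads (11%), and MST1, the threonyl enzyme, with 30 of 367 (8.17%). HER2, a subunit of the amidotransferase that makes glutaminyl-tRNA, had 11 of 245 (4.49%), and AIM10, a putative prolyl enzyme, 13 of 348 (3.74%). None of the 4 had a tagged read in Puf3-dPup2. The list of 7 as a whole had 80 of 2056 reads tagged in Puf3 (3.89%), and its lowest single share was 0%. Of 3 mitochondrial tRNA modification enzymes, MTO1 had 29 of 440 reads tagged (6.59%), MSS1 8 of 152 (5.26%) and SLM3 2 of 183 (1.09%). All 3 had the element, but only MSS1 with the C. MTO1 was a target without it.

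Synthetases that serve the cytosol were hardly tagged in Puf3. The 16 cytosolic synthetases had 27 tagged of 84067 reads in Puf3 (0.0321%), with a highest single share of 0.103% for GLN4, the glutaminyl enzyme. None passed the filter on tagged reads. In Pub1, an RBP with RNA recognition motifs, 2600 of 17291 reads of these genes were tagged (15%), and 15 of 16 were tested and called higher than in dPup2. Over all genes, 22.4% of reads in Pub1 were tagged, a higher share than in this list. At 99.9%, nearly every gene tested in Pub1 was called. The list's median share in Pub1 was 8.97%. Of the 4 with the highest shares in Puf3, which are not the extremes in Pub1, the shares in Pub1 were 39.04% for YHR020W, a prolyl enzyme, 26.6% for MES1, the methionyl enzyme, 8.07% for ILS1, the isoleucyl enzyme, and 1.82% for GLN4. In Sro9, an RBP with a La motif, 15 of 16 were likewise tested and called, and 99.6% of tested genes were called. The 10 members had 7 tagged of 448 reads in Pub1 (1.56%, 0.759 to 3.19%), and none of them passed the filter there. The 5 enzymes that serve both compartments had 110 tagged of 23135 reads in Puf3 (0.475%), of which GRS1, the glycyl enzyme, gave 101 of 7094 (1.42%). The counting windows are of equal length for all genes. The members had a median of 22.2 RPM in Puf3 and the cytosolic enzymes 301.8 RPM.

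**Figure D3:**
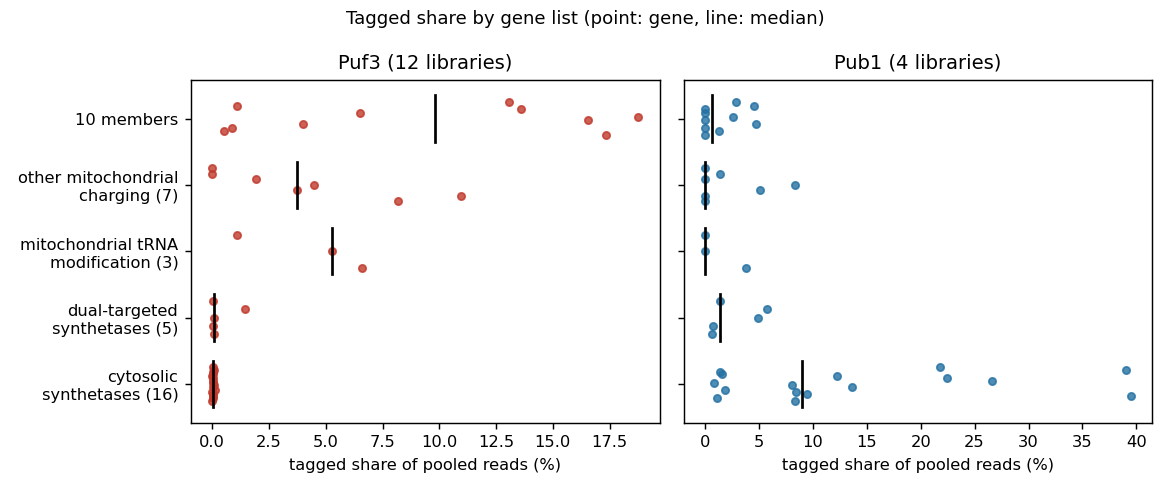
Tagged share of pooled reads (%, horizontal axis) of each gene (point) in 5 gene lists (vertical axis) in Puf3 (left, 12 libraries) and Pub1 (right, 4 libraries), with the list median as a line. The members' median is 9.80% in Puf3 and 0.676% in Pub1, and that of the cytosolic synthetases 0.0302% and 8.97%.

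Among the 33 other intact RBPs, 9 had any tagged read on a member and 24 had none. Together they had 25 tagged of 13444 member reads (0.186%, 0.126 to 0.274%), while 1.31% of all their reads were tagged. By number, Pub1 had the most, 7 of 448, where 22.4% of all its reads were tagged. Pbp1 followed with 5 of 440 (1.14%, 0.486 to 2.63%), where 0.0808% of all its reads were tagged. These 5 reads lay on 4 members, which had a modification level above 0.15 but fewer than 16 RPM. The difference from the share over all genes was not tested. Of the PUF proteins, Puf4 had 3 of 1186 (0.253%) and Puf5 2 of 1505 (0.133%). None of the members reached 10 tagged reads in any of these comparisons, so none was tested. Each library of dPup2 and C-Swat had 0 tagged reads on the members (2257 reads in 11 dPup2 libraries, up to 0.133%). In the 39 deletion strains of other RBPs, 51 of 18246 member reads were tagged (0.28%, 0.213 to 0.367%), in 14 strains, and no member was tested. The most were 13 of 956 reads in Pub1_Δ2 and 8 of 401 in Pub1_ΔT1, where 8.94% and 21% of all reads were tagged. Rie1_Δ2 had 5 of 366 (1.37%), where 0.398% of all reads were tagged. These 5 reads lay on 4 members, of which 3 met the level and RPM of a target. The share of all genes that were targets there is not given, so this count is no result about the members.

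The 3 non-member genes whose modification level over the 84 Pup2 strains was most like the members' mean were YML6 (Pearson r = 0.965), RSM25 (r = 0.962) and PET191 (r = 0.961), of 2943 genes with 16 RPM or more in every strain. The correlation is on log2 of the level + 0.01, the strains of an RBP share libraries and depth with all genes, and it is given as a description.

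Deleting the RNA-binding domain of Puf3 left no tagged read on any member. ΔRBD had 0 of 584 member reads in 3 libraries, which allows a share of up to 0.514%, against 9.52% in Puf3. MSE1, MSD1, MSF1, NAM2, MSR1 and ISM1 were at 0 in each ΔRBD library, with 77, 45, 38, 61, 58 and 51 reads in turn over the 3 libraries. Over the share that 3 reads would give in ΔRBD, the pooled Puf3 share was 4.24-fold for MSE1, 2.82-fold for MSD1 and 2.76-fold for NAM2. It was 2.53-fold for MSR1 and 2.20-fold for MSF1. These ratios leave out the error of the Puf3 share and the spread between libraries, so they are not lower bounds. The two-sided exact permutation test of library shares (12 against 3), chosen after the data had been seen and with no filter, gave p = 0.0154 for MSE1, 0.0286 for MSF1, 0.0374 for MSD1, 0.0505 for MSR1 and 0.0681 for NAM2, unadjusted. The smallest p this design allows is 0.0022. For ISM1, MSM1, MSK1, MSW1 and MSY1 it gave exact p of 0.316 or higher. Some Puf3 libraries were also at 0 for each member except MSE1, so that only for MSE1 did the 2 groups not overlap.

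In edgeR's test, 51.4% of the 449 genes were called lower in ΔRBD. Of 6 members tested, MSE1, MSD1, MSF1, NAM2 and MSR1 were called lower, which is no result about the members, since with no tagged read in ΔRBD they reached the filter through Puf3 alone and could differ only downwards. The calls also rest on few reads. Without replicate 1 of ΔRBD there were 4, without replicate 3 only MSD1 and MSE1, and without replicate 4 only MSE1 and NAM2. With 4 to 16 Us counted as tagged, none was called lower.

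In the 10 other Puf3 deletion strains, 1505 of 14162 member reads were tagged in all (10.6%, 10.1 to 11.1%). Each strain had tagged reads on 8 to 10 members. MSW1 had none in T1, T5, T7 (del465) and ΔIDR, MSK1 none in T7 (del465), and MSD1 none in ΔIDR. All 10 comparisons share the 12 Puf3 libraries. No member was called higher or lower in any of them, of 6 to 10 members tested. Among all genes tested, the share changed was 4.84% in ΔIDR, 0.737% in T7 (del465), 45.2% in T7 (del513), 33.9% in Δnon-RBD, 0% in T1, 0.375% in T2, 0% in T3, 7.44% in T4, 14.1% in T5 and 26.2% in T6. At an unadjusted p under 0.05, edgeR gave 1 lower member of 6 in ΔIDR (MSD1), where 1.05% of all genes were lower at that threshold. With no tagged read in ΔIDR, MSD1 passed the filter through Puf3 alone and could differ only downwards. This call is thus no result about the members. At the same threshold, edgeR gave 1 higher of 7 in Δnon-RBD (MSM1), with 46.6% of all genes higher. In T4 it gave 3 higher of 10 (MSW1, MSK1 and MSY1), with 25.1%. Each of these had fewer than 10 tagged reads in Puf3 (MSM1 9, MSK1 4, MSW1 2, MSY1 2). They passed the filter only with the reads of the deletion strain, which favours a higher share there. These counts are thus no result about the members. DESeq2 and limma likewise called none after adjustment.

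The members' shares in these strains are given beside that in Puf3 as a description. All counts use the same 12 Puf3 libraries as reference, so that a member with a low value there tends to lie above it and the counts show no change. Over all genes, 1.13% of reads were tagged in these strains and 0.624% in Puf3, and the part of this difference in the members' values was not tested. MSY1 lay above its Puf3 share in 10 of 10 strains, with pooled shares of 1.74 to 18.2% and a median of 4.19%, against 0.893% in Puf3. The highest value, in ΔIDR, came from 11 reads. MSK1 was higher in 9 of 10 (median 3.25%) and MSM1 in 9 of 10 (median 7.21%, highest 27.8% in T6). ISM1 was higher in 8 of 10 (median 10.7%) and MSW1 in 6 of 10 (median 1.30%). NAM2 and MSD1 were higher in 5 of 10, MSE1 in 6, MSR1 in 7 and MSF1 in 3.

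In ΔIDR, MSD1 had 0 of 6 and 0 of 15 reads tagged in 2 libraries, against 18.8% in Puf3 (edgeR adjusted p 0.234). Its 21 reads allow a share of up to 14.3%, and 1 of 12 Puf3 libraries was at 0 as well.

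In T4, which had the most member reads of these strains (3514), all 10 members were tested. MSW1 had shares of 2.53%, 2.30%, 2.22% and 3.33% in its 4 libraries, against 0 in 10 of 12 Puf3 libraries and 2.17% at the highest (edgeR log2 fold change 1.97, adjusted p 0.145). MSK1 had 4.05%, 4.65%, 4.69% and 6.45%, against at most 4.35% in Puf3 (edgeR log2 fold change 1.93, adjusted p 0.146). MSY1 had 4.76%, 7.41%, 3.57% and 0%, against at most 7.14% in Puf3 (edgeR log2 fold change 1.90, adjusted p 0.175). The T4 libraries lay above every Puf3 library for MSW1, with 9 tagged reads in all, and overlapped with the highest Puf3 libraries for MSK1 and MSY1. None of these differences passed the test. MSW1, MSK1 and MSY1 reached the filter on tagged reads only with the T4 reads, which favours a higher share in T4. In T6, MSM1 had 50.0% and 13.6% in 2 libraries, of 14 and 22 reads. It fell below 16 RPM in that comparison and was not tested, and without the RPM minimum it was called higher. With 9 tagged reads in Puf3, MSM1 reached the filter on tagged reads only with the T6 reads.

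T5 had the lowest member share of these 10 strains, 107 of 1968 reads (5.44%, 4.52 to 6.53%). MSF1 had 1.32%, 8.70% and 6.25% in its 3 libraries (edgeR log2 fold change -1.53, adjusted p 0.236), and MSE1 had 9.72%, 2.78% and 4.17% (edgeR log2 fold change -1.49, adjusted p 0.22). Both sets of libraries overlapped with the Puf3 libraries. NAM2 in T5, with 11.5%, 14.2% and 6.67%, had an edgeR log2 fold change of -0.10 (adjusted p 0.943).

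**Figure D4:**
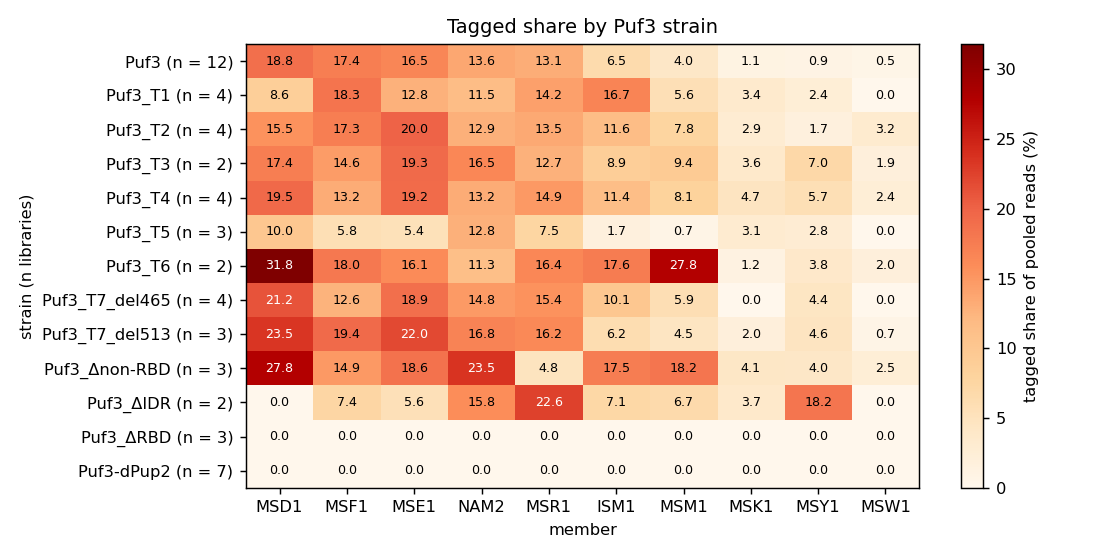
Tagged share of pooled reads (%, colour and printed value) of each member (horizontal axis) in Puf3, 11 Puf3 deletion strains and Puf3-dPup2 (vertical axis, with the number of libraries n). ΔRBD and Puf3-dPup2 are at 0 for every member, and the T5 row has the lowest shares of the others for MSF1, MSE1, ISM1 and MSM1.

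Finally, the members' mRNA level was compared, as all reads with 0 to 16 Us. The summed level of the 10 members averaged 215.7 ± 50.6 RPM (SD, n = 12) in Puf3. Its libraries ran from 149.1 through a median of 224.9 to 296.8 RPM. In Puf3-dPup2 it was 175.0 ± 29.2 RPM (n = 7), from 117.9 through 171.8 to 204.0 RPM. The C-Swat libraries had 188.0, 192.0, 122.3 and 96.6 RPM. The ranges of Puf3 and its controls overlap. No member passed edgeR's test in any of 14 comparisons, and DESeq2 called none. In these bulk cultures, less mRNA per cell and fewer cells with the mRNA cannot be told apart.

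Against Puf3-dPup2, the median log2 fold change of the 10 members was 0.36, and that of all 5209 genes tested was 0.0037. The largest were MSE1 (0.68 ± 0.21 SE, adjusted p 0.158) and ISM1 (0.64 ± 0.32, adjusted p 0.402), followed by MSM1 (0.60 ± 0.22, adjusted p 0.249). MSE1 had 11.5, 25.3 and 40.2 RPM as lowest, median and highest in Puf3, and 13.8, 14.9 and 20.2 RPM in Puf3-dPup2. MSW1 (-0.0011 ± 0.17), MSK1 (-0.04 ± 0.21) and MSY1 (0.04 ± 0.25), the 3 with almost no tagging, had the smallest differences. Unadjusted, 2 members were higher (MSM1 and MSE1), and 1 against C-Swat (ISM1). The share of all genes at the unadjusted threshold is not given, so these counts are no result about the members. After adjustment, no member was called, and 0.442% of all genes were called changed against Puf3-dPup2. Puf3-dPup2 against C-Swat had a members' median of 0.01, with 0.0572% of genes called, and Puf3 against C-Swat 0.28, with 2.86% called.

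No member's level passed the test between a deletion strain and Puf3. The median log2 fold change against Puf3 was 0.42 in T7 (del465) and in T4, 0.35 in T6, 0.30 in T7 (del513), 0.29 in T5 and 0.24 in ΔRBD, where no tagging was found. It was 0.21 in T2, 0.17 in T1, 0.07 in Δnon-RBD, -0.08 in ΔIDR and -0.09 in T3. NAM2 in T7 (del465) had the largest single difference, 0.92 ± 0.22 (edgeR adjusted p 0.097). Unadjusted, 4 members were higher in T7 (del465), 3 in T4, and 1 each in T2 and T5, and none was lower. The share of all genes at the unadjusted threshold is not given, so these counts are no result about the members. After adjustment no member was called, and the shares of all genes that follow are after adjustment. Over all genes, 0.265% were called in T7 (del465), 0.702% in T4, 0.925% in T6, 0.496% in T7 (del513), 7.17% in T5, 0.0194% in ΔRBD, 0.0194% in Δnon-RBD and 0% in the others. The strain means of the 76 strains edited at an RBP other than Puf3 ran from 93.3 to 209.2 RPM, with a median of 145.5 RPM. Puf3 and 9 of its deletion strains, ΔRBD among them, took the first 10 places of the 90 strains.

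**Figure D5:**
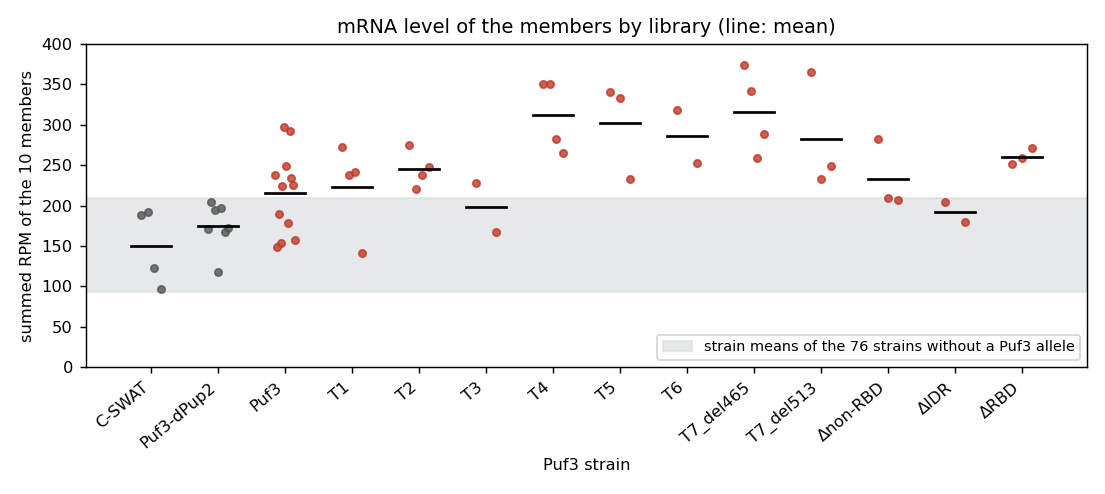
Summed RPM of the 10 members (vertical axis) in each library (point) of the Puf3 strains (horizontal axis), controls in grey and Pup2 fusions in red. The line is the strain mean, and the shading is the range of strain means in the 76 strains edited at an RBP other than Puf3. T7_del465, T4 and T5 have means of 315.7, 312.3 and 301.7 RPM, and Puf3 and its controls overlap.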

How the data were processed

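Per the labels, RNA was extracted from exponential BY4741 cultures. The authors enriched mRNA by its poly(A) tail, added a UMI adapter at the 3′ end, mapped read 1 of each pair to the R64 genome and counted Us on read 2 (bcl2fastq, cutadapt, Bowtie2 and bedtools, versions not given in the sources used here). The deposited values are raw counts of sense reads per gene and U number, in a window around the transcription termination site (300 nt before it, 100 nt after). Whether UMIs were collapsed is not stated, so intervals cover counting error only. These 3′ counts do not check which part of an RBP was deleted.

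Members and gene lists were chosen with earlier results of these data known. All 10 members are named, and other genes come from lists of related enzymes (up to 4 per list by share) and the 3 genes most alike. RPM scales each library to 1000000 reads. Tests ran over all genes: edgeR 4.0.16 (quasi-likelihood, tagged reads with the gene's reads as offset, at least 10 tagged reads and 16 RPM, or all reads with TMM and filterByExpr), adjusted p under 0.05 after Benjamini-Hochberg. Alternatives used DESeq2 1.42.0, limma 3.58.1 (pseudocounts 0.5 and 1), other U lengths, filters, controls and left-out libraries. R 4.3.3 and scipy 1.17.1 were used. The edgeR steps were tested on simulated data. Among 136 pairs of libraries of one Puf3 or control strain, none agreed within counting noise (chi-square per degree of freedom 2.11 or more). In 25-base words of the 300 bases before and 100 after each member's stop codon, none recurs in the genome, and the next gene on the same strand starts 201 or more bases downstream.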

Additional observations from a re-analysis of the deposited data

Results flagged for a closer look

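Of 60 sets of 4 to 7 libraries checked for a library far from the others, 4 had one, and chance alone gives about 1 in 20. MSM1 had a tagged share of 11.5% in replicate C2_2 of Puf3 T1, where the next library had 5%. MSD1 had 28.8% in replicate 3 of Puf3 T4, and the next library had 18.4%. The MSW1 level was 18.2 RPM in replicate 7 of the Puf3 C-Swat strain, and the nearest library had 31.1 RPM. The MSD1 level was 36.1 RPM in replicate C1_4 of Puf3-dPup2, and the next was 18.5 RPM.

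Reads outside 4 to 13 Us were not used as tagged. The members had 56 reads with 14 or 15 Us in Puf3 (1.81% of their reads) and 1 in Puf3-dPup2 (0.0533%). They had 161 reads with 1 to 3 Us in Puf3 (5.20%) and 49 in Puf3-dPup2 (2.61%).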

How the results depend on the processing

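Of 205 recomputed counts, 196 stayed within 1.5 times the main count, but many of these could hardly move. Some are 0 with no member tested. Each left-out library of a Puf3 deletion strain was counted as changed, higher and lower, and altered only the calls of its own strain. All 5 calls came from ΔRBD, and leaving out its replicates 1, 3 and 4 gave 4, 2 and 2. The 5 members called higher in Puf3 than in Puf3-dPup2 stayed 5 in each left-out Puf3 library, with DESeq2, limma, 6 to 13 Us, all 11 dPup2 libraries or the C-Swat strain as control, and Puf3 libraries titled C1 alone. They were 4 with 4 to 16 Us (MSR1 lost) and 6 without the RPM minimum (ISM1 gained). With 4 to 13 or 6 to 13 Us the members had no tagged read in the controls. The filter thus fixed the direction of these calls, and their steady number is no result about the members. In the main test, 78.1% of all genes tested were called higher. A replicate block over the 3 shared title numbers, which keeps 3 libraries a group, gave 0 of 4 tested. The numbers did not pair the libraries (correlations of deviations 0.233, -0.154 and 0.0816 over 4496 genes), and the cause was not tested. In the Puf3 deletion strains, counting 4 to 16 Us gave 1 call in place of 5, which was 1 higher (MSW1 in T5) and 0 lower. Without the RPM minimum 1 member was called higher (MSM1 in T6), which reached the filter on tagged reads only with the T6 reads. Leaving out 1 library gave 2 to 5 changed, 2 to 5 lower and 0 higher members. The lone library of a strain of 2 is then assumed to vary like Puf3. The replicate block was possible for 1 of these strains, T1, which had no call with or without it; ΔRBD shares no number with Puf3, so its 5 calls were not put through the block. Targets in Puf3 stayed 6 at thresholds of 0.1 and 0.3. With 6 to 13 and 4 to 16 Us, chosen after seeing the data, the pairs that differed numbered 23 to 24 of 45 and the members past the exact permutation test 5 to 6. No member was called at the mRNA level under any alternative. In the other RBPs no member reached the filter except with 4 to 16 Us, where 103 tests of members gave 0 calls, and in their deletions none reached it. Libraries of other RBPs were not left out in turn, since no member was tested there. With about 20 reads per member and library, a share of a few percent is often not detectable in a single library.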
